A study of Mus musculus with 20 samples.

Results

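The enzymes that build, sulfate and cut glycosaminoglycans were examined in RNA-seq libraries of mouse temporomandibular joint (TMJ) condylar heads. Members were taken by gene symbol alone: the *Chst*, *Hs2st*, *Hs3st*, *Hs6st*, *Ndst*, *Ext* and *Extl*, *Chsy*, *Chpf*, *Csgalnact*, *B3gat*, *Xylt*, *Has* and *Hyal* genes. This gave 54 of the 54532 genes in the count table. Of the 54, 43 passed the filter on low counts and were tested, and 11 did not.

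Each library came from the condylar head together with some of the bone under its cartilage. All mice carried Acan-Cre;*Loxl2* fl/fl, that is, a tamoxifen-inducible Cre (CreERT2) placed in the aggrecan gene and *Loxl2* alleles flanked by loxP sites. *Loxl2* encodes lysyl oxidase like 2, which crosslinks collagen fibres. Injections began at 6 months of age, with vehicle for 8 control mice (4 males, 4 females) and with 75 mg/kg tamoxifen for 12 mice (6 males, 6 females) whose libraries are labelled LOXL2 knockout. Mice were injected daily for 5 days and then monthly, and tissue was taken after 4 months. There were 8 control libraries and 12 libraries labelled knockout, and the labels give neither sex nor batch per library. Since tamoxifen was given to 1 group only, the drug and the deletion cannot be told apart. Cre acts in aggrecan-expressing cells, whereas the libraries hold RNA of every cell type in the piece.

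Libraries labelled knockout did not have less *Loxl2* RNA. CPM are counts scaled to library size. The control mean was 64.5 ± 30.9 CPM (SD, n = 8), and that of the other group was 101 ± 26.9 CPM (SD, n = 12; edgeR log2 fold change 0.64, adjusted p = 0.101), so that the second group is called the libraries labelled knockout throughout. Library totals ran from 1.42e+07 to 2.38e+07 counts in control and from 1.12e+07 to 2.70e+07 in the libraries labelled knockout. A gene with 3 counts, taken as the limit that a count of 0 allows, measured 0.0964 to 0.246 CPM. Over all 15984 genes tested, 1918 were called higher and 1755 lower at an adjusted p under 0.05, and with library totals as scaling 72.0% of the calls were higher.

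The libraries did not hold the same mix of tissue. The summed level of 15 chondrocyte markers ran from 97.8 to 4417 CPM in control and from 606 to 7580 CPM in the libraries labelled knockout, and 3 of its 12 tested markers were called higher. *Col2a1*, the main collagen of cartilage, ran from 1.68 to 1159 CPM in control and from 66.3 to 2267 CPM in the others. Control replicates 8 and 6 stood apart with mean log2 levels of the chondrocyte list of 0.46 and 1.73, against 3.80 to 4.65 in the other 6 control libraries. Knockout replicates 5, 4 and 7 were lowest in their group, at 1.98, 2.85 and 3.0. All 10 osteoclast markers were called higher, with a summed level of 183 to 1485 CPM in control and 665 to 8093 CPM in the libraries labelled knockout. Of the osteoblast and osteocyte list 7 of 12 markers were called higher, of the macrophage list 8 of 9, and of the skeletal muscle list 5 of 12 were called lower. In bulk tissue, fewer cells of a type and less RNA per cell cannot be told apart. The part of these shifts in the results below was not tested beyond the values given beside them.

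Glycosaminoglycans are long chains of repeating sugar pairs. Chondroitin, dermatan and heparan sulfate are built on a short linker that is started by xylose on a serine of a core protein, such as aggrecan in cartilage. Chain-building enzymes of the Golgi then add the sugar pairs in turn, and sulfotransferases place sulfate at set positions, which fixes the charge of the chain and the proteins it binds. Chondroitin sulfate on aggrecan holds the water that lets cartilage bear load. Hyaluronan is made at the plasma membrane without a core protein or sulfate, and aggrecan is tethered to it.

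Sequence is shown for 4 members whose calls stood in every omission of 1 library. They are the chain builder *Chsy1*, the chondroitin and dermatan 4-sulfotransferases *Chst11* and *Chst14*, and *Hs3st5*, a heparan 3-sulfotransferase that was lower. Each is the 250 bases before the RefSeq transcription start, written 5′ to 3′ along the gene (all 4 lie on the plus strand, GRCm38.p6), at chr7:66109242-66109491, chr10:82985247-82985496, chr2:118926247-118926496 and chr10:36506557-36506806 in that order. Capitals mark the GC box (GGGCGG), the E-box CACGTG and the CCAAT box (CCAAT), on either strand.
Chsy1: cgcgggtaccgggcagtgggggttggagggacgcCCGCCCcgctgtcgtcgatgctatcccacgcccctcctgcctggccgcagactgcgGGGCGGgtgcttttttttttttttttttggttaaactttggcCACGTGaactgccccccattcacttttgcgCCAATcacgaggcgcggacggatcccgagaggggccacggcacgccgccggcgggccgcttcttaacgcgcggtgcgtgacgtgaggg
Chst11: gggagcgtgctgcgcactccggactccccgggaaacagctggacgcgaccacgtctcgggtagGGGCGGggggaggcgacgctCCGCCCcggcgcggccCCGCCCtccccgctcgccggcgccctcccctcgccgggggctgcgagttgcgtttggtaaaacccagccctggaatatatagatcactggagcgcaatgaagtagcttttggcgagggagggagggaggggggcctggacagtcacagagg
Chst14: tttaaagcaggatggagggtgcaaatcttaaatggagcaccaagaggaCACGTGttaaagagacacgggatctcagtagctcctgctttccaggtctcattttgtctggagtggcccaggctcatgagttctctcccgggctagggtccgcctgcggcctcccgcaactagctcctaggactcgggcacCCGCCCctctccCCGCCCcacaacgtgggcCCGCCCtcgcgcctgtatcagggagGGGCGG
Hs3st5: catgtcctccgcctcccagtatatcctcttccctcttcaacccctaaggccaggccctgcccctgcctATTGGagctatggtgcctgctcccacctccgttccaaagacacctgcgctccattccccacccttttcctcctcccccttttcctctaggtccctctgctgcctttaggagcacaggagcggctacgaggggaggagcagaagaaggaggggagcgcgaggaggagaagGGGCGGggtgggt

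*Chsy1* held 2 GC boxes, 1 CACGTG and 1 CCAAT box, *Chst11* held 3 GC boxes, *Chst14* held 4 GC boxes and 1 CACGTG, and *Hs3st5* held 1 GC box and 1 CCAAT box. RefSeq windows were at hand for 41 of the 54 members and for 15 of the 17 called ones; *Ext1* and *Has3* had none. A GC box was found in 10 of the 12 windows of members called higher and in 1 of 3 of those called lower, and 33.0% of all 32536 windows held it. CACGTG was found in 3 of 12 and 0 of 3 (6.04% of all windows), and the CCAAT box in 6 of 12 and 2 of 3 (33.8%). None of the 15 windows held TATAAA (12.3% of all windows), AACAAT, the core of SOX sites (9.35%), or TGTGGT, the core of RUNX sites (14.0%). Windows of members called higher were 52.8% (*Chst13*) to 71.6% (*Chst5*) G and C, and those called lower 53.2% to 62.0%. The median over all windows was 52.4%, and the part of base composition in these counts was not tested. The starts used for *B3gat1* and *Extl1* lay 17834 and 11303 bases from the gene's annotated 5′ end (GENCODE). Annotated exon covered 248 of the 250 bases for *Chst5*, 201 for *Xylt2* and 190 for *Chpf*. Motifs were searched on both strands and can overlap one another, and a match is no more than those letters in that window.

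Levels were compared between genes per length, as RPKM (CPM per kilobase of exon). In control, the highest mean was that of *Extl1*, at 18.7 ± 3.45 RPKM (SD), followed by the linker enzyme *B3gat3* at 16.2 ± 1.44 and the keratan sulfotransferase *Chst1* at 14.6 ± 10.3. These neighbours did not differ beyond their spread. *Extl3* at 10.004 ± 1.64, *Ndst1* at 9.10 ± 1.28, *Chst12* at 8.70 ± 2.51 and *Chpf* at 7.92 ± 2.91 RPKM came next, again within each other's spread. In all, 12 members had a control mean of at least 5 RPKM. *Chst13*, *B3gat2*, *Hs3st4* and *Hs6st2* were the lowest of those tested, each under 0.22 RPKM. In the libraries labelled knockout *B3gat3* (18.2 ± 2.45 RPKM), *Chpf* (15.7 ± 3.46) and *Chst12* (14.6 ± 3.72) led.

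**Figure D1:**
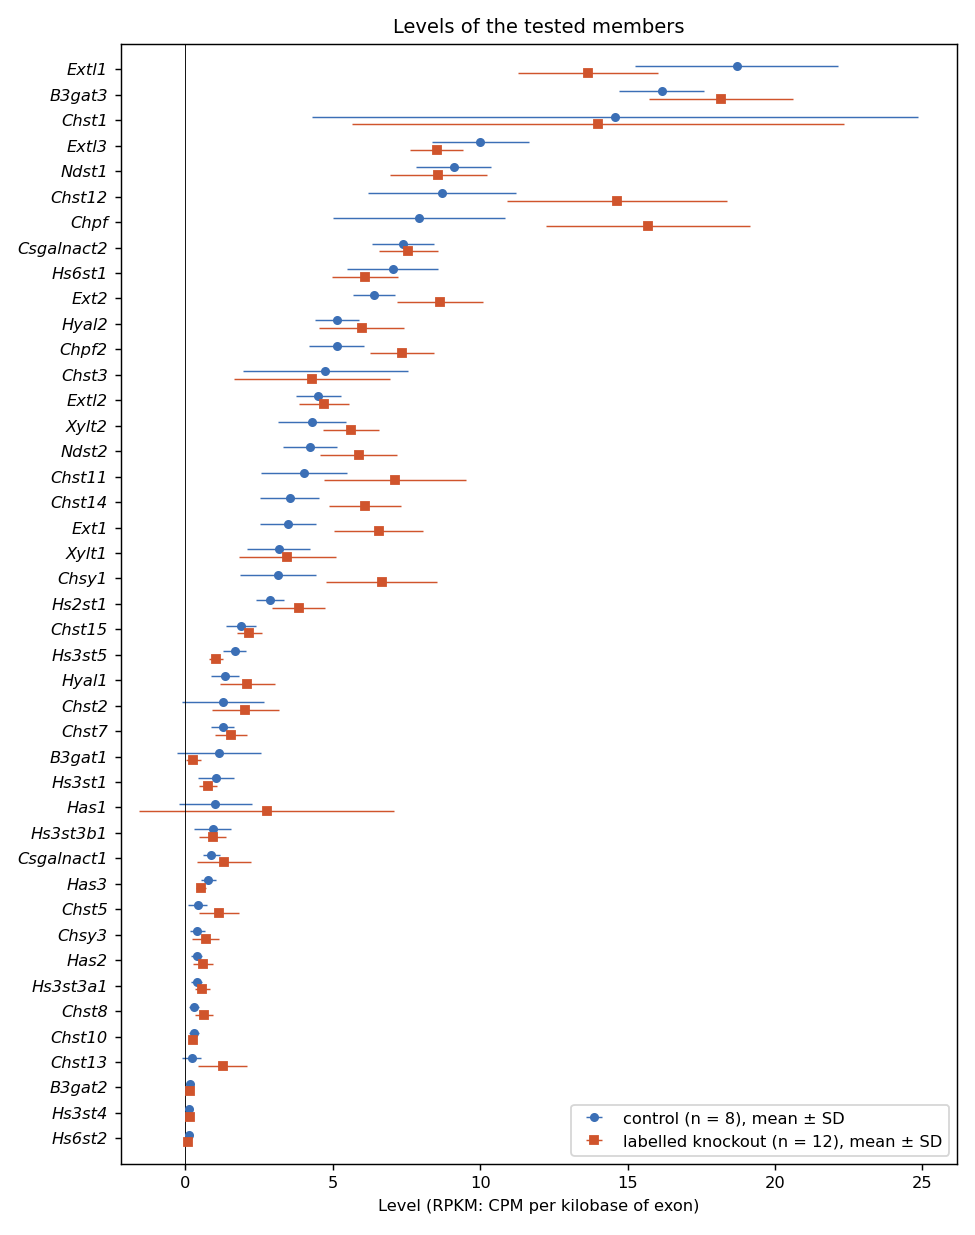
Levels of the 43 tested members, as mean and SD of RPKM (CPM per kilobase of exon) over 8 control libraries (circles) and 12 libraries labelled knockout (squares), ordered by the control mean. *Extl1* leads in control at 18.7 RPKM, and *Chpf*, *Chst12* and *Chsy1* lie further right in the libraries labelled knockout.

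In the libraries labelled knockout, 13 of the 43 tested members were called higher and 4 lower, and 26 were not called. *Chst13* and *Chst5*, among the higher ones, passed the filter through the libraries labelled knockout, as given below. Among all tested genes 23% were called, 12% higher and 11% lower. The median log2 fold change was 0.28 over the tested members and -0.02 over all genes, and 30 members had a positive and 13 a negative value. No member separated the groups fully, and over all genes 0.213% did so with the libraries labelled knockout higher and 0.0876% with them lower. Of the 17 calls, 12 stood in each of the 20 fits that left out 1 library. Without control replicates 6 and 8, an alternative added after seeing the data, 8 members remained higher (*Chpf*, *Chpf2*, *Chst11*, *Chst12*, *Chst14*, *Chsy1*, *Ext1*, *Ext2*) and 2 lower (*Extl1*, *Hs3st5*). Control replicate 8 was the lowest control library for 7 of the 13 higher members and replicate 6 for 4, while control replicate 5 was the highest for 9. Control replicate 5 also had the highest osteoclast list of the control libraries.

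**Figure D2:**
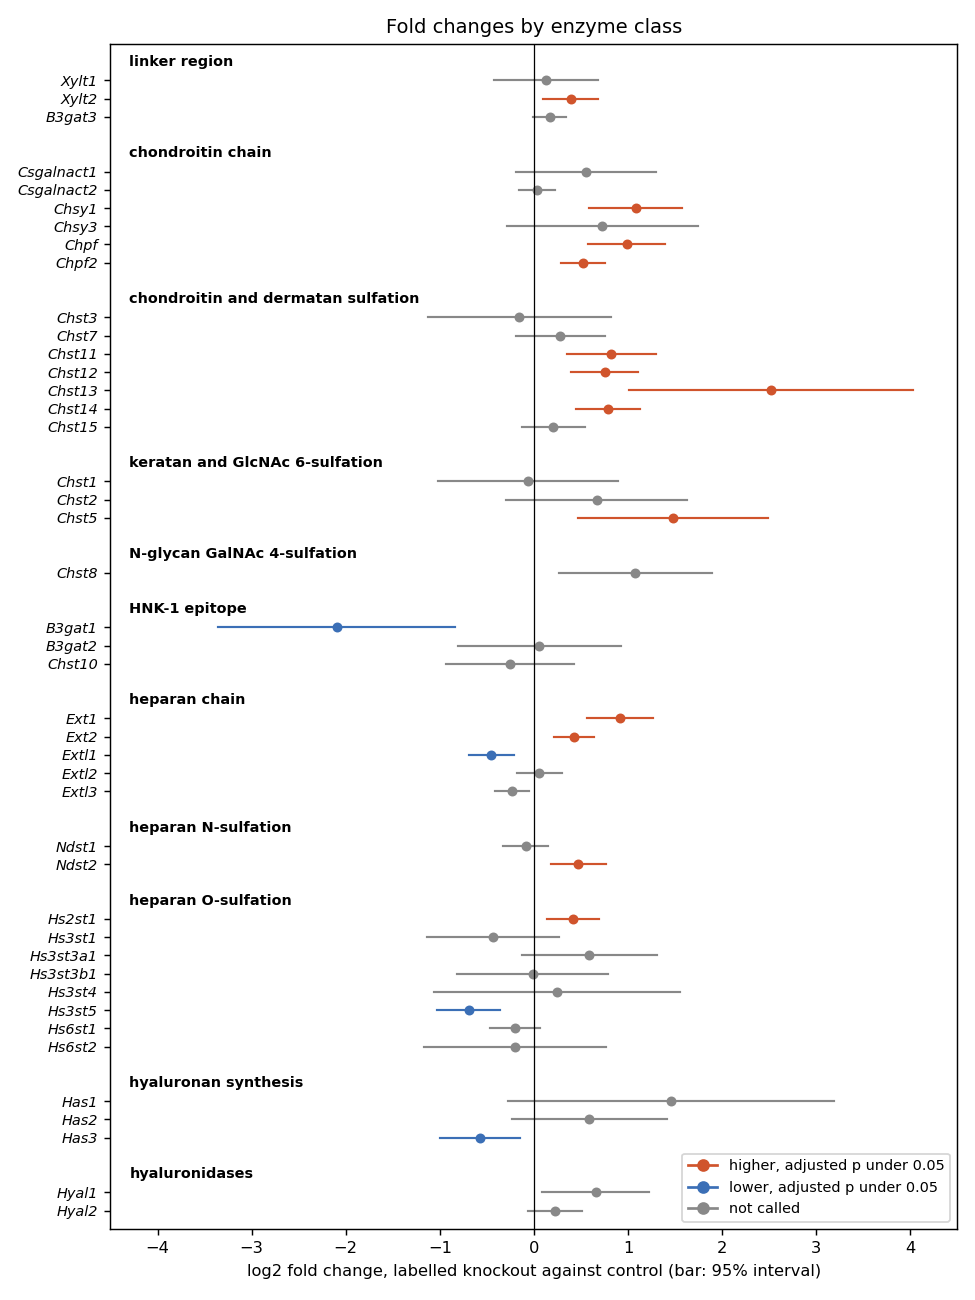
Log2 fold change of each tested member between the 12 libraries labelled knockout and 8 control libraries, with its 95% interval, grouped by enzyme class (edgeR). Of the 13 members called higher, 3 belong to chondroitin chain building and 4 to chondroitin and dermatan sulfation. *Chst13* and *Chst5*, among the 13, passed the filter through the libraries labelled knockout. The 4 called lower are *B3gat1*, *Extl1*, *Hs3st5* and *Has3*.

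All 3 linker enzymes were tested and 1 was called higher, where 12% of all tested genes were. *Xylt2*, which adds the first xylose to core proteins in most tissues, measured 11.2, 16.8 and 23.6 CPM (lowest, median, highest) in control and 17.0, 21.1 and 28.1 CPM in the libraries labelled knockout. The groups overlapped, and 4 of the 12 libraries labelled knockout lay above every control library. The difference was 1.31-fold (log2 0.39, SE 0.14, adjusted p = 0.0481), and the call stood in 7 of the 20 omissions. It was lost without control replicate 3, 4, 6 or 8 and without knockout replicate 1, 2, 3, 6, 7, 8, 9, 10 or 11 (adjusted p = 0.0504 to 0.0962). It was 0.24 without control replicates 6 and 8 (adjusted p = 0.243). *Xylt1*, the second xylosyltransferase, did not pass (log2 0.13, 95% interval -0.43 to 0.68). *B3gat3*, which adds the glucuronic acid that completes the linker, differed by 0.17 on the log2 scale (-0.0049 to 0.34, adjusted p = 0.146), so that its interval lay inside a 1.5-fold change.

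Of the 6 tested genes for chondroitin chain building, 3 were called higher and 0 lower, with a median log2 fold change of 0.64. Among all tested genes 12% were called higher and 11% lower. *Chsy1* (ENSMUSG00000032640, chr7:66109515-66173798), a synthase that adds both sugars of the pair, measured 5.44, 13.2 and 20.98 CPM in control and 12.9, 31.8 and 35.4 CPM in the libraries labelled knockout. Of the 12 libraries labelled knockout, 10 lay above the highest control library. *Chsy1* was 2.11-fold higher (log2 1.08, SE 0.24, adjusted p = 0.00415). *Chpf*, the partner that the synthases need for long chains, measured 11.9, 31.3 and 48.0 CPM in control and 37.6, 61.5 and 81.4 CPM in the others. All 12 libraries labelled knockout exceeded the control median and 9 exceeded its highest library (1.98-fold, log2 0.99, SE 0.20, adjusted p = 0.00235). *Chpf2*, a related glucuronyltransferase, measured 20.4, 30.0 and 34.3 CPM in control and 29.1, 41.9 and 47.8 CPM in the others (1.43-fold, log2 0.52, SE 0.11, adjusted p = 0.00370). For *Chpf2* the exons share 44.1% of their bases with *Smarcd3* on the opposite strand, and the sources used here do not state whether counting used strand.

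The other 3 members of the class were not called. *Csgalnact2*, which adds the first N-acetylgalactosamine and had the highest level of the class after *Chpf*, measured 33.2, 40.0 and 48.9 CPM in control and 31.8, 42.6 and 49.4 CPM in the libraries labelled knockout. Its log2 fold change of 0.03 had a 95% interval of -0.16 to 0.23, inside a 1.5-fold change. *Csgalnact1* (log2 0.55, -0.19 to 1.30) and *Chsy3* (log2 0.73, -0.29 to 1.74) had intervals that include both no change and a 2-fold change.

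Of the 7 chondroitin and dermatan sulfotransferases, all tested, 4 rose and 0 fell, where 12% and 11% of all tested genes did so. All 4 place sulfate at position 4 of N-acetylgalactosamine, and 1 of them, *Chst13*, was tested through the group in which it was high and lost its call without control replicates 6 and 8. *Chst11* (ENSMUSG00000034612, chr10:82985498-83195900), the main chondroitin 4-sulfotransferase of cartilage, measured 10.5, 22.6 and 35.3 CPM in control and 22.8, 38.9 and 62.8 CPM in the others. All 12 libraries labelled knockout were above the control median and 8 above the highest control library (1.77-fold, log2 0.82, SE 0.23, adjusted p = 0.0135). *Chst12*, a second enzyme of this kind, measured 11.9, 19.9 and 28.3 CPM in control and 22.8, 33.7 and 50.2 CPM in the others (1.68-fold, log2 0.75, SE 0.17, adjusted p = 0.00546). Of the 12 libraries labelled knockout, 8 lay above every control library here too.

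*Chst13*, the third chondroitin 4-sulfotransferase, was low throughout. It measured 0, 0.150 and 1.57 CPM in control, where 4 libraries had no count, and 0.281, 2.06 and 5.17 CPM in the libraries labelled knockout. Control replicate 5 was highest in control and knockout replicate 2 over all libraries. The fitted difference was 5.73-fold (95% interval 2.01 to 16.3, log2 2.52, SE 0.73, adjusted p = 0.0173). Only 2 of 8 control libraries and 11 of 12 labelled knockout reached the 0.546 CPM of the filter, so that the gene was tested because of the group in which it was high. It was 3.37 on the log2 scale without control replicate 5 (adjusted p = 0.00373) and 2.37 without control replicates 6 and 8 (adjusted p = 0.0613). *Chst14* (ENSMUSG00000074916, chr2:118926496-118928585), which sulfates dermatan, measured 4.90, 6.78 and 10.5 CPM in control and 7.28, 13.3 and 16.5 CPM in the others. Of the 12 libraries labelled knockout, 10 lay above every control library (1.72-fold, log2 0.78, SE 0.16, adjusted p = 0.00294).

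The chondroitin 6-sulfotransferases were not called. *Chst3*, the main enzyme for position 6 and the highest of the class in control after *Chst12*, measured 1.61, 36.3 and 48.4 CPM in control and 6.70, 25.8 and 61.6 CPM in the libraries labelled knockout. Its 2 lowest control libraries were replicates 8 and 6, at 1.61 and 4.15 CPM, and the log2 difference was -0.16 (95% interval -1.13 to 0.82, adjusted p = 0.843). *Chst7*, the second enzyme for position 6, differed by 0.28 (-0.19 to 0.75). *Chst15*, which adds a second sulfate to a unit already sulfated at position 4, differed by 0.21 (-0.13 to 0.54), inside a 1.5-fold change. The ratio of *Chst11* to *Chst3* in RPKM, computed after the values had been seen and given with no test, had a median of 0.822 in control (0.420 to 20.7) and of 2.02 in the others (0.872 to 4.001).

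**Figure D3:**
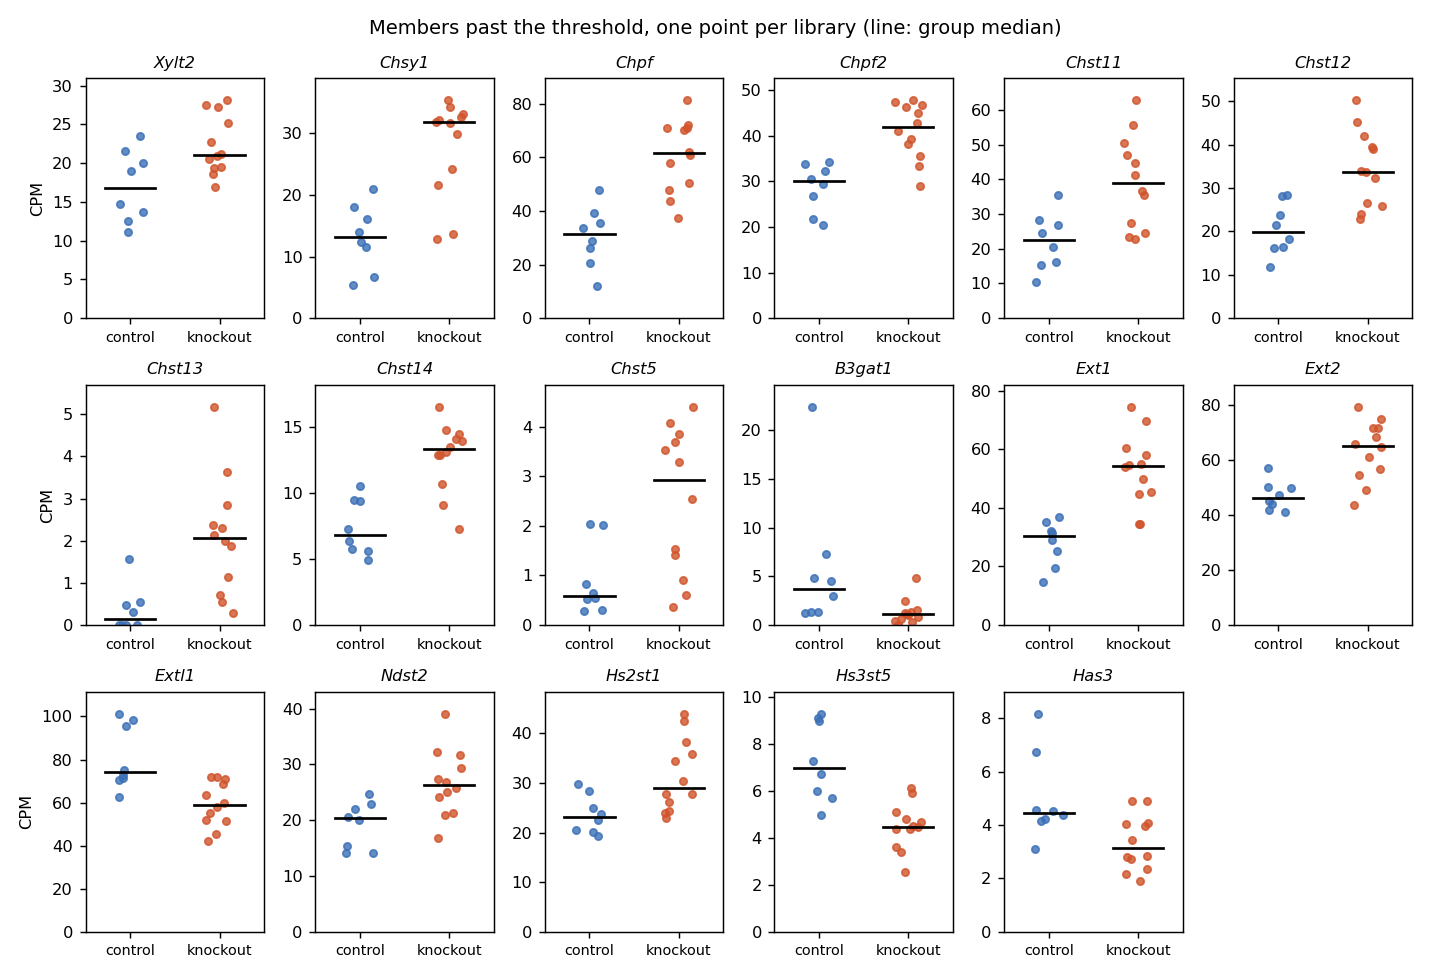
CPM of the 17 members past the threshold, with 1 point per library for 8 control libraries and 12 labelled knockout, and the group median as a line. The groups overlap for every gene, and the control library of *B3gat1* at 22.4 CPM stands apart from the rest.

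Keratan and N-acetylglucosamine 6-sulfation had 3 of 4 members tested, and 1 was called higher, where 12% of all tested genes were. *Chst5*, a sulfotransferase for N-acetylglucosamine, measured 0.277, 0.590 and 2.04 CPM in control and 0.354, 2.92 and 4.40 CPM in the libraries labelled knockout. It was 2.78-fold higher (95% interval 1.38 to 5.59, log2 1.48, SE 0.48, adjusted p = 0.0324), a call that 7 of the 20 omissions ended (control replicate 3, 4, 6, 7 or 8, knockout replicate 1 or 2, adjusted p = 0.0504 to 0.0668). Omission of control replicates 6 and 8 together gave 1.18 (adjusted p = 0.133). In control 4 of 8 libraries reached the 0.546 CPM of the filter, against 11 of 12 labelled knockout. *Chst5*, like *Chst13*, was therefore tested because of the group in which it was high. *Chst1*, which sulfates the galactose of keratan, ran from 2.53 to 86.9 CPM in control and from 12.0 to 72.6 CPM in the others. Its log2 difference of -0.06 had an interval of -1.02 to 0.89 and turned positive with library totals as scaling. *Chst2* differed by 0.67 (-0.29 to 1.63) and was highest at 32.4 CPM in control replicate 6 and at 32.0 CPM in knockout replicate 4. Without control replicate 6 it was 1.30 and called higher (adjusted p = 0.0353), and without control replicates 6 and 8 together 1.17 (adjusted p = 0.0863). *Chst8*, which sulfates N-acetylgalactosamine on N-glycans such as those of pituitary hormones, narrowly missed the threshold (log2 1.08, SE 0.39, adjusted p = 0.0508). It passed without control replicate 1, 2 or 5 or knockout replicate 4, 5 or 7 (log2 1.15 to 1.32, adjusted p = 0.0180 to 0.0497).

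The HNK-1 epitope is a sulfated sugar known mainly from nerve cells. *B3gat1*, the glucuronyltransferase that makes most of it, measured 1.23, 3.72 and 22.4 CPM in control and 0, 1.12 and 4.84 CPM in the libraries labelled knockout. Control replicate 8 held the value of 22.4 CPM and replicate 1 the next, at 7.28 CPM. The fitted difference was -2.10 on the log2 scale (4.27-fold lower, SE 0.61, adjusted p = 0.0174). Without control replicate 8 it was -1.32 (adjusted p = 0.107), and without control replicates 6 and 8 it was -1.23 (adjusted p = 0.181). *B3gat2* (log2 0.05) and the sulfotransferase *Chst10* (log2 -0.25) were not called.

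Of the 5 tested genes for heparan chain building, 2 were called higher and 1 lower, where 12% and 11% of all tested genes were. *Ext1* (ENSMUSG00000061731, chr15:53064038-53346159), a catalytic subunit of the heparan polymerase, measured 14.9, 30.4 and 37.1 CPM in control and 34.4, 54.3 and 74.4 CPM in the libraries labelled knockout. Of the 12 libraries labelled knockout, 10 lay above every control library. *Ext1* was 1.88-fold higher (log2 0.91, SE 0.17), with the smallest adjusted p of the members (0.00163). Its partner *Ext2* measured 41.1, 46.2 and 56.9 CPM in control and 43.7, 65.0 and 79.1 CPM in the others (1.35-fold, log2 0.43, SE 0.10, adjusted p = 0.00623). The ratio of *Ext1* to *Ext2* in RPKM, also computed after the values had been seen, had a median of 0.575 in control (0.269 to 0.652) and of 0.708 in the others (0.631 to 1.01).

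*Extl1*, a related N-acetylglucosaminyltransferase and the member with the highest control level, fell. It measured 62.7, 74.1 and 101 CPM in control and 42.2, 58.9 and 71.7 CPM in the libraries labelled knockout, of which 7 lay below every control library (1.37-fold lower, log2 -0.45, SE 0.11, adjusted p = 0.00877). The highest control library was replicate 8, which also had the highest skeletal muscle list of the 20, at a mean log2 CPM of 12.5. The value was -0.43 without control replicates 6 and 8 (adjusted p = 0.0375). With the skeletal muscle list as covariate it was -0.29 and not called (adjusted p = 0.165). In that fit 3.54% of all tested genes were called, and of the members only *Chpf*, *Chst12* and *Ext1*. The slope of *Extl1* on that list, fitted as described below, was not called (0.22, SE 0.09, adjusted p = 0.0760). *Extl3*, which starts the heparan chain on the linker, differed by -0.23 (-0.41 to -0.05, adjusted p = 0.0624), and *Extl2* by 0.06 (-0.18 to 0.30). Both intervals lay inside a 1.5-fold change, and *Extl3* was called lower without control replicate 1 or knockout replicate 5 or 8 (adjusted p = 0.0331 to 0.0483).

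Of the 4 genes for heparan N-sulfation 2 were tested and 1 was called higher, where 12% of all tested genes were. *Ndst2*, which replaces acetyl groups by sulfate at the start of heparan and heparin modification and is needed for the heparin of mast cells, measured 14.1, 20.3 and 24.7 CPM in control and 16.8, 26.4 and 39.1 CPM in the others. It was 1.39-fold higher (log2 0.47, SE 0.14, adjusted p = 0.0218), and 0.36 without control replicates 6 and 8 (adjusted p = 0.123). Of 9 mast cell markers 7 were tested and 6 were called higher, with a summed level of 2.22 to 20.6 CPM in control and 5.82 to 194 CPM in the libraries labelled knockout. *Ndst1*, the more abundant enzyme of the pair, differed by -0.09 (-0.33 to 0.15), inside a 1.5-fold change; the sign turned with library totals as scaling.

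Of the 8 tested heparan O-sulfotransferases, 1 rose and 1 fell, where 12% and 11% of all tested genes did so. *Hs2st1*, the only 2-O-sulfotransferase of heparan, measured 19.2, 23.1 and 29.7 CPM in control and 23.0, 29.1 and 43.9 CPM in the others (1.33-fold, log2 0.41, SE 0.13, adjusted p = 0.0286). It lost the call without control replicate 4 or 6 (adjusted p = 0.0528 and 0.0542) and without replicates 6 and 8 together (log2 0.36, adjusted p = 0.111). *Hs3st5* (ENSMUSG00000044499, chr10:36506814-36834397) measured 4.99, 6.99 and 9.29 CPM in control and 2.54, 4.47 and 6.14 CPM in the libraries labelled knockout. All 12 of these lay below the control median and 9 below every control library (1.62-fold lower, log2 -0.69, SE 0.16, adjusted p = 0.00538). With the skeletal muscle list as covariate it was -0.56 and not called (adjusted p = 0.0761). Only *Chpf*, *Chst12* and *Ext1* of the members, and 3.54% of all tested genes, were called in that fit. The slope of *Hs3st5* on that list, fitted as described below, was not called (0.19, SE 0.13, adjusted p = 0.273). *Hs6st1*, the most abundant enzyme of the class, differed by -0.21 (-0.47 to 0.06), inside a 1.5-fold change. *Hs3st1*, *Hs3st3a1*, *Hs3st3b1*, *Hs3st4* and *Hs6st2* were not called and had intervals too wide to place them.

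Of the hyaluronan synthases, *Has3* was called lower near the threshold. It measured 3.10, 4.46 and 8.17 CPM in control and 1.92, 3.14 and 4.90 CPM in the libraries labelled knockout (1.49-fold lower, log2 -0.57, SE 0.21, adjusted p = 0.0487), and the call stood in 6 of the 20 omissions. It was lost without control replicate 2, 3, 6, 7 or 8 and without knockout replicate 1, 2, 3, 4, 6, 8, 9, 10 or 11 (adjusted p = 0.0504 to 0.132). It was also lost without control replicates 6 and 8 (-0.52, adjusted p = 0.148). *Has1* was split by library. Its levels were 62.4, 35.5 and 29.4 CPM in knockout replicates 4, 7 and 5 and 17.7 CPM in control replicate 6, while no other library was above 6.61 CPM. The log2 difference of 1.46 (-0.28 to 3.19) was not called (adjusted p = 0.211). It was 2.22 without control replicate 6 (adjusted p = 0.0798) and 0.80 without knockout replicate 4 (adjusted p = 0.473). *Has2* differed by 0.59 (-0.23 to 1.41).

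Neither hyaluronidase tested was called. *Hyal2*, a surface enzyme that cuts long hyaluronan, differed by 0.22 (-0.07 to 0.51), inside a 1.5-fold change. *Hyal1*, the lysosomal enzyme, differed by 0.66 (0.09 to 1.22, adjusted p = 0.0868, and 0.0487 without knockout replicate 5), and its exons share 50.8% of their bases with *Naa80* on the same strand.

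The 11 members under the filter were *Chst4*, *Chst9*, *Ndst3*, *Ndst4*, *Hs3st2*, *Hs3st6*, *Hs6st3*, *Hyal3*, *Hyal4*, *Hyal5* and *Hyal6*. *Chst4* and *Hyal5* had no count in any of the 20 libraries. *Ndst3* had 222 counts (8.33 CPM) in control replicate 1 and at most 0.686 CPM in any library labelled knockout. No other of the 11 exceeded 0.901 CPM in any library.

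The spread within groups was described by how members moved with marker lists. A slope of each gene on the mean log2 CPM of a list was fitted with the group in the same edgeR model, which was added after the data had been seen. With the chondrocyte list, 11 of 43 members rose and 1 fell, where 5.72% and 3.5% of all tested genes did so. *Chst3* had the steepest positive slope, 0.98 log2 units per unit of the list (SE 0.09, adjusted p = 7.41e-07). *Chsy3* (0.80, SE 0.14), *Hs3st3b1* (0.67, SE 0.11), *Hs3st3a1* (0.48, SE 0.11) and *Chpf2* (0.15, SE 0.03) also kept their slopes in all 20 omissions, as did *Chst3*. Each omission left control replicate 6 or 8, the libraries lowest on this list, in the fit. Slopes were not refitted without both, and without control replicate 8 alone 6 members rose. None of *Chst3*, *Chsy3*, *Hs3st3b1* and *Hs3st3a1* was called between the groups. *Chst11* had a slope of 0.15 (SE 0.08, adjusted p = 0.227). *Hs3st3a1* shares 32.9% of its exonic bases with *F930015N05Rik* on the opposite strand.

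With the fibroblast and synovial lining list, 3 members rose and 0 fell, against 1.83% and 0.1% of all tested genes. *Has1* rose by 2.47 log2 units per unit of the list (SE 0.22) and *Csgalnact1* by 0.94 (SE 0.16), both in all 20 omissions. *Chst2* rose by 1.04 (SE 0.24), a slope not called without control replicate 6 (0.80), knockout replicate 4 (1.06) or knockout replicate 7 (1.15). The list was highest in knockout replicates 7, 4 and 5 (8.25, 8.05 and 7.46) and control replicate 6 (7.12), the same 4 libraries in which *Has1* was highest. *Has1* also fell with the chondrocyte list (slope -1.15, SE 0.27), in all 20 omissions.

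With the osteoclast list, 12 members rose and 0 fell, against 7.86% and 6.33% of all tested genes. *Chst5* (0.73, SE 0.17), *Ext1* (0.29, SE 0.06), *Chst14* (0.25, SE 0.06) and *Ndst2* (0.23, SE 0.05) kept their slopes in all 20 omissions, and *Chst13* (1.01, SE 0.25) in 19, with 0.86 (adjusted p = 0.0574) without control replicate 5. The other 7 were *Chpf2*, *Chst8*, *Chsy1*, *Ext2*, *Hs2st1*, *Hyal1* and *Xylt2*. Of the 12, 10 were also called higher between the groups. *Chst11*, *Chst12* and *Chpf* were called between the groups with no slope called on this list. Their slopes were 0.28 (SE 0.096, adjusted p = 0.0525), 0.02 (SE 0.09, adjusted p = 0.889) and 0.20 (SE 0.09, adjusted p = 0.125). That of *Chst11* just missed the threshold and was called in 3 of the 20 omissions. With the osteoclast list as covariate 0 members and 0 of all genes were called between the groups. At an unadjusted p under 0.05 there were 2 members and 1299 genes. *Xylt2*, *Chst5*, *Ndst2* and *Hs2st1* turned sign in that fit. The list itself differed by 2.37 mean log2 CPM between the groups, so that list and group cannot be fully told apart in it. For *Chst12* the log2 value was 0.70 (SE 0.27) against 0.75 (SE 0.17) without the covariate. For *Ext1* it was 0.24 (SE 0.17) against 0.91 (SE 0.17). For *Chst11* it was 0.13 (SE 0.30) against 0.82 (SE 0.23), and for *Chpf* 0.54 (SE 0.26) against 0.99 (SE 0.20). With the skeletal muscle list, 2 members rose and 10 fell, against 12.5% and 13.5% of all tested genes, counts that became 0 and 17 with library totals as scaling. With that list as covariate, 3 members were called higher between the groups (*Chpf*, *Chst12*, *Ext1*) and 0 lower, and 3.54% of all tested genes were called.

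**Figure D4:**
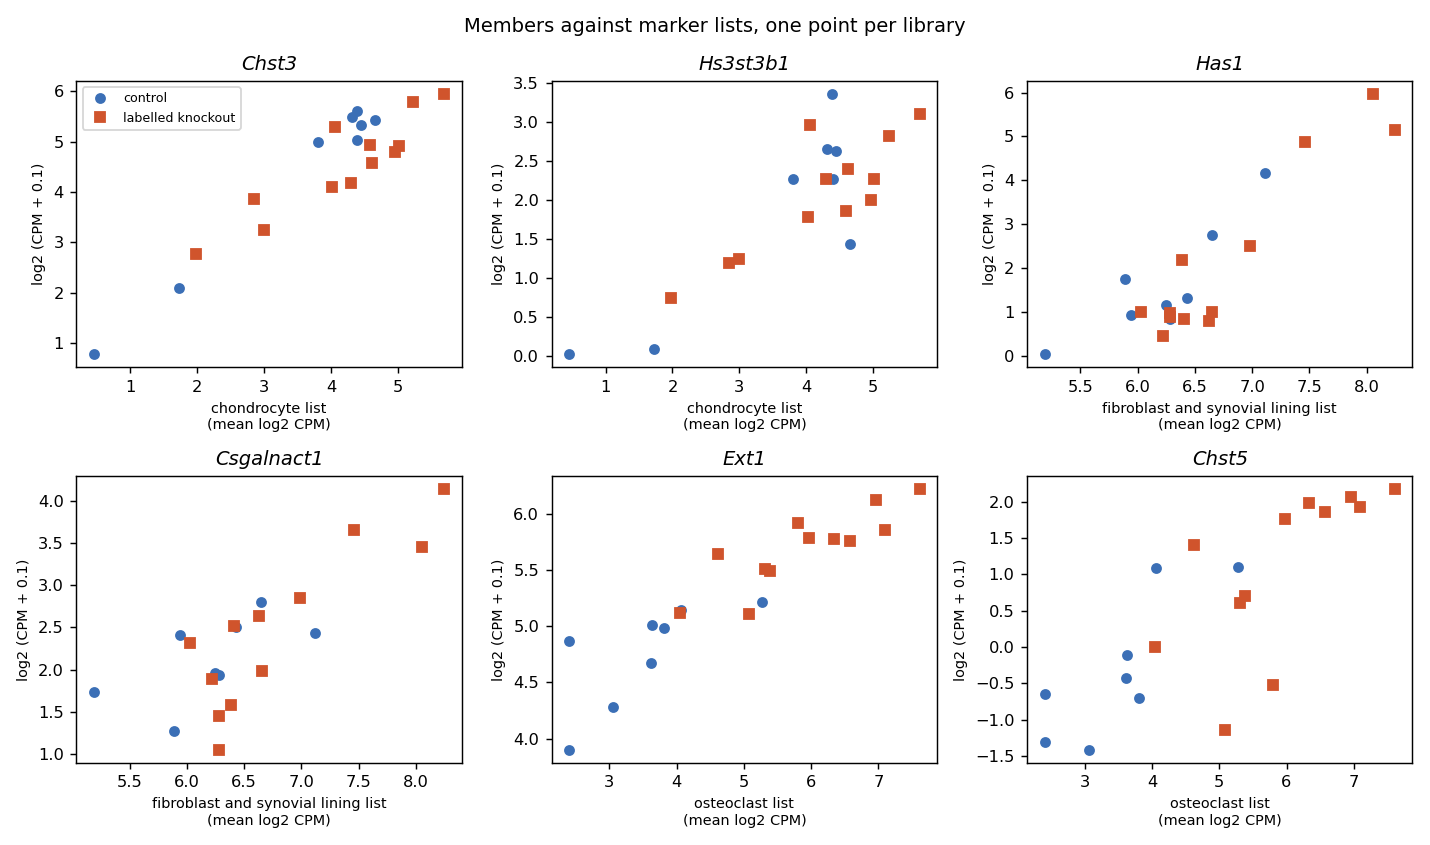
Level of 6 members (log2 of CPM + 0.1) against the mean log2 CPM of a marker list, with 1 point per library, for 8 control libraries (circles) and 12 labelled knockout (squares). *Chst3* and *Hs3st3b1* rise with the chondrocyte list, and *Has1* is high in the 4 libraries at the right end of the fibroblast and synovial lining list.

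The rest of the pathway was read from 4 lists. Of 64 tested genes 28 were called higher and 0 lower, with a median log2 fold change of 0.47. Among all tested genes 12% were called higher and 11% lower. How the pathway counts moved with the marker lists as covariates is given in the last section. Of the list for glycosaminoglycan breakdown, 12 of 16 rose and 0 fell, with a median of 1.02. This list also holds *Cd44*, a hyaluronan receptor and not an enzyme, which was among those called higher (log2 1.11, SE 0.24). The smallest p-values were those of the lysosomal enzymes *Hexa* (98.5 ± 23.9 to 239 ± 102 CPM, SD, log2 1.28, SE 0.23, adjusted p = 0.00140) and *Naglu* (17.4 ± 5.33 to 40.3 ± 15.7 CPM, log2 1.21, SE 0.22, adjusted p = 0.00144). All 12 libraries labelled knockout were above the control median for both. Among other linker, epimerase and sulfatase enzymes 5 of 12 rose, led by *Dse*, the epimerase that turns chondroitin into dermatan (log2 0.75, SE 0.19), and *B4galt7*, the first galactosyltransferase of the linker (log2 0.44, SE 0.11). Of the genes for sugar precursors and sulfate donor 4 of 16 rose, led by *Slc35b2*, the Golgi carrier of the sulfate donor (34.2 ± 2.91 to 49.1 ± 8.39 CPM, log2 0.52, SE 0.10), and *Papss2*, which makes that donor (log2 0.61, SE 0.15).

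Of the list for proteoglycan core proteins 7 of 20 rose, led by the syndecans *Sdc1* (27.7 ± 14.4 to 68.9 ± 31.1 CPM, log2 1.31, SE 0.32) and *Sdc2* (log2 0.84, SE 0.21). The 20 include *Hapln1* and *Hapln3*, which are link proteins and not core proteins. Neither was called (edgeR adjusted p = 0.543 and 0.0506). *Acan*, the core protein that carries most chondroitin sulfate in cartilage, measured 115 ± 99.7 CPM in control and 71.3 ± 65.4 CPM in the others, a difference within its spread (log2 -0.69, adjusted p = 0.489). It ran from 2.22 CPM in control replicate 8 to 276 CPM in control replicate 4. Without control replicates 6 and 8, 18 pathway genes were called higher and 1 lower.

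**Figure D5:**
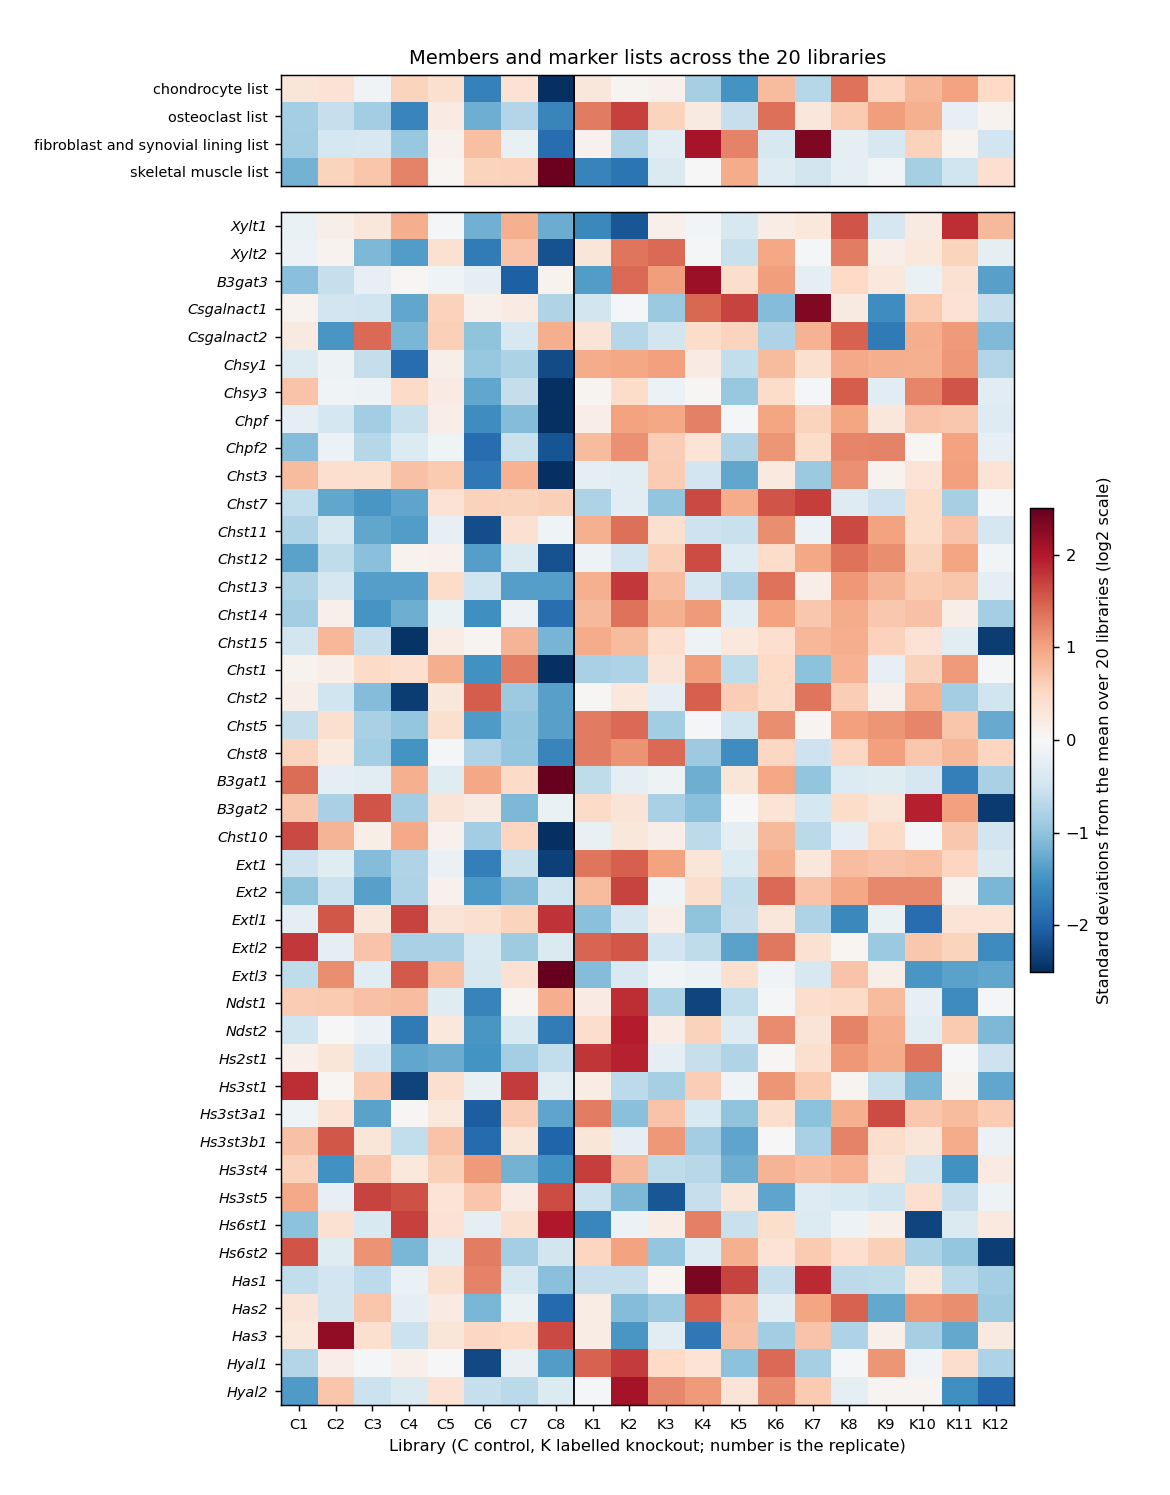
The 43 tested members (lower panel) and 4 marker lists (upper panel) in each of the 20 libraries, as standard deviations from the mean over all libraries on the log2 scale, with control (C) left of the line and libraries labelled knockout (K) right of it. Control replicates 6 and 8 are low in the chondrocyte list and in *Chst3*, and *Has1* is high in K4, K5 and K7.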

How the data were processed

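RNA was sequenced from 20 condylar heads, 8 control and 12 labelled knockout, grouped by the sample titles. Members, gene lists and tests were chosen with earlier results of these data known.

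The authors trimmed paired-end reads, mapped them to mm10 and used featureCounts to count reads over genes. The deposited values are raw counts. Aligner, annotation release and use of strand are not given in the sources used here, so that reads of overlapping or antisense genes cannot be assigned with certainty. Of 54532 genes, 54495 matched GENCODE M21 (GRCm38) by identifier and 37 did not, and 20340 had no count.

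Genes were kept by filterByExpr, scaled by TMM and compared with the edgeR 4.0.16 quasi-likelihood F-test (R 4.3.3, limma 3.58.1) on group alone, two-sided, with Benjamini-Hochberg adjustment over all 15984 genes and a threshold of 0.05. CPM used TMM-scaled totals, and log2 CPM a prior count of 2. RPKM divided CPM by the union of exon lengths. Intervals are 95% and come from the fit. The procedures were tested on simulated counts. The text gives every member, with full values for those past the threshold. For the most abundant member of each class and those whose interval excludes a 1.5-fold change, it gives at least the log2 fold change with its interval or SE. Of each pathway list it gives the 2 genes with the smallest p in each direction.

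Alternatives were DESeq2 size factors or library totals as scaling, the DESeq2 1.42.0 Wald test, no filter or a mean of 1 CPM, a replicate block over 16 libraries, osteoclast, chondrocyte or skeletal muscle lists as covariates, and omission of each library. After seeing the data, the omission of control replicates 6 and 8 and the slopes on marker lists were added. The labels do not say that replicates are separate animals, so that p-values measure the spread between these libraries. Over 190 pairs of libraries the smallest chi-square was 32.9 per degree of freedom, so that no pair held the same library. The floor of 3 counts covers counting error alone. Promoter windows are from RefSeq, GRCm38.p6.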

Additional observations from a re-analysis of the deposited data

Results flagged for a closer look

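In 4 members a single control library lay far from the other 7 by Dixon's test, which by chance marks about 1 in 20 groups. *Chst10* was lowest in control replicate 8 at 0.230 CPM, against 1.73 CPM in the next library. *Chsy3* was at 0 CPM in the same library, against 1.04 CPM in the next. *Ndst1* was lowest in control replicate 6 at 53.1 CPM, against 67.8 CPM in the next. *Hs3st1* was lowest in control replicate 4 at 0.358 CPM, against 1.53 CPM in the next. None of the 4 was called between the groups, and *Chsy3* rose with the chondrocyte list, in which control replicate 8 was lowest. *Chst10* also rose with that list (slope 0.46), but not without control replicate 8 (0.29, adjusted p = 0.133).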

How the results depend on the processing

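Members called higher and lower numbered 13 and 4 as reported, 13 and 4 with DESeq2 size factors, 13 and 3 with library totals, 14 and 4 with the DESeq2 Wald test, 11 and 3 with no filter and 14 and 4 at a mean of 1 CPM. With library totals the median over all genes was 0.12, above the reported -0.02, and 72.0% of all calls were higher. The replicate block left 1786 genes, 10 members higher and 2 lower and 17 pathway genes higher, and the same 16 libraries without it 12 members higher and 2 lower. Replicate numbers did not pair the libraries: correlations of deviations ran from -0.36 to 0.168, 2 of 8 were over 0.1, and 0 control libraries correlated best with their own number. The osteoclast covariate, which itself differed between the groups, left 0 genes, 0 members in either direction and 0 pathway genes higher. The skeletal muscle covariate left 566 genes, 3 members higher, 0 lower and 3 pathway genes higher. The chondrocyte covariate left 2921 genes, 11 members higher and 2 lower, with 2 pathway genes lower. The count of pathway genes called higher in that fit is not given here. Without control replicates 6 and 8 there were 1703 genes, 8 members higher and 2 lower, and 18 pathway genes higher and 1 lower. The causes were not tested.

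Omission of 1 library gave 2551 to 4181 genes, 10 to 15 members higher, 2 to 5 lower, 22 to 32 pathway genes higher and 0 to 1 lower. The fewest genes (2551) and lower members (2) came without control replicate 8, and the 1 lower pathway gene without knockout replicate 4. Members that rose with a list numbered 6 to 14 for chondrocyte, 5 to 13 for osteoclast, 2 to 3 for fibroblast and synovial lining and 0 to 2 for skeletal muscle, and those that fell 1 to 1, 0 to 0, 0 to 1 and 4 to 11. The 6 came without control replicate 8 or knockout replicate 5, the 5 without knockout replicate 5 (7 without replicate 2), the 1 without knockout replicate 7, the 0 without control replicate 1 or 8 (1 without knockout replicate 5), and 4 or 5 without control replicate 5 or 8 or knockout replicate 2, 5 or 12. With library totals 0 rose and 17 fell with skeletal muscle, and the slope of *Extl3* was -0.010.

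Signs turned for uncalled members except where named as called in the report. The osteoclast covariate gave *B3gat2* -0.43, *Chst15* -0.22, *Chst5* -0.21, *Chst8* -0.16, *Extl2* -0.24, *Hs2st1* -0.039, *Hs3st3a1* -0.024, *Hs3st4* -1.35, *Hyal1* -0.38, *Hyal2* -0.12, *Ndst2* -0.054, *Xylt2* -0.062 and *Sdc1* -0.11. Library totals gave *Chst1* 0.019, *Hs3st3b1* 0.055 and *Ndst1* 0.066, and a median of the heparan O-sulfation class of 0.0088. The skeletal muscle covariate gave *B3gat2* -0.32, *Extl2* -0.16, *Hs3st4* -0.50 and *Hs6st1* 0.027, and the chondrocyte covariate *B3gat2* -0.075 and *Xylt1* -0.043. The replicate block gave *B3gat2* -0.028, *Hs6st2* 0.22 and *Xylt1* -0.15, and the 16 libraries without it -0.13, 0.055 and -0.056. *Xylt1* was -0.075 without control replicates 6 and 8. Omissions of 1 library ran from -0.13 to 0.30 for *B3gat2*, -0.23 to 0.21 for *Chst1*, -0.15 to 0.28 for *Hs3st3b1* and -0.32 to 0.026 for *Hs6st2*. In the shallowest library a level under 0.246 CPM cannot be told from 0.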
